A study of Mus musculus with 26 samples.

Results

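Satellite cells are the stem cells of skeletal muscle, and 10 genes that mark them or keep them in place were followed here through muscle regeneration and through differentiation of C2C12 myoblasts. The genes were Pax7, Pax3, Calcr, Cxcr4, Fgfr4, Sdc4, Spry1, Chrdl2, Vcam1 and Cdh15. They were found by gene symbol, and all 10 were present among the 53465 genes of the muscle table and the 55487 genes of the C2C12 table.

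Satellite cells lie under the basal lamina of the muscle fibre. In resting muscle most of them are quiescent. After injury they enter the cell cycle, become myoblasts under the control of Myod1 and Myf5, and then either fuse into new fibres or return to quiescence. Pax7 and the related Pax3 are the transcription factors that define the lineage. Calcr, the calcitonin receptor, and Spry1, an intracellular inhibitor of receptor tyrosine kinase signalling, are known for holding satellite cells quiescent. Cxcr4 is the receptor of the chemokine Cxcl12, Fgfr4 a receptor of fibroblast growth factors, and Sdc4 a heparan sulphate proteoglycan that serves as their co-receptor. Chrdl2 is a secreted antagonist of bone morphogenetic proteins. Vcam1 and Cdh15 (M-cadherin) are adhesion proteins at the cell surface.

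The muscle libraries came from tibialis anterior muscle of C57BL/6J mice, taken on days 0, 1, 3, 5 and 10 after cardiotoxin (CTX), a snake venom toxin that destroys muscle fibres, with 2 libraries for each day. The methods name male mice, and saline as the control. Whether day 0 was untouched muscle or muscle given saline is not settled by the labels. The cell libraries came from C2C12, a line of mouse myoblasts, and formed 4 groups of 2: control cells in growth medium (Ctrl-GM), control cells on the third day in differentiation medium with low horse serum (Ctrl-DM3), and Mettl3 knockdown cells at both stages (Cas9M3-GM and Cas9M3-DM3). By the methods, the knockdown cells were a puromycin-selected line carrying guides against the promoter of Mettl3, which encodes the m6A methyltransferase, together with a nuclease-dead Cas9 fused to the KRAB repressor under the human ubiquitin C promoter. The series text speaks of a knockout instead, and the sources used here do not say what the control line carried. No label says that 2 libraries of a group came from separate animals or cultures, so each p measures the spread between these libraries, which may be technical. The day 3 libraries are an exception by their own values: Ddx3y, on the Y chromosome, had 6.10 FPKM in replicate 1 and 0.0285 in replicate 2, so they were not of 1 animal.

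The deposited values are FPKM, fragments on a gene per kilobase of its exons and scaled to the number of fragments in the library. Judged by the step that 1 read makes in low values, the libraries held between 14170000 and 18820000 reads on genes in muscle and between 14230000 and 29570000 in C2C12. Tests used log2(FPKM + 0.1) for every gene that reached 0.5 FPKM in 2 or more libraries, 16753 genes in muscle and 13824 in C2C12, with limma and Benjamini-Hochberg adjustment over all of them. A gene was called where its adjusted p did not exceed 0.05, and fold changes are on this scale, which understates the change of low genes. The filter was passed by 7 of the 10 genes in muscle (not by Pax3, Calcr and Chrdl2) and by 5 in C2C12 (Cdh15, Cxcr4, Sdc4, Spry1 and Vcam1).

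Some libraries stood apart. Xist, transcribed from the inactive X chromosome of female cells, was at 5.77 to 10.0 FPKM in both libraries of day 0, both of day 10 and replicate 2 of day 3, although the methods name male mice. In the other 5 muscle libraries it was at most 0.152 FPKM. Replicate 1 of day 3 can therefore be compared with days 1 and 5, and replicate 2 of day 3 with days 0 and 10, among libraries that share this trait. For days 1 and 5 against day 0, the trait and the day cannot be told apart. In C2C12, the replicate 2 libraries were shallower, and their top gene took 9.42% to 37.9% of all FPKM, against 2.80% to 3.79% in the replicate 1 libraries. The highest share was that of Ctrl-GM replicate 2, and its top gene was Gm23935. In muscle, Gm23935 was the top gene of every library. Its share of all FPKM ran from 21.5% in replicate 2 of day 5 to 30.2% in replicate 1 of day 3.

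The targeted gene was low in every knockdown library. Mettl3 had 4.70 and 5.65 FPKM in Ctrl-GM, 0.331 and 0.118 in Cas9M3-GM, 4.68 and 5.15 in Ctrl-DM3, and 0.148 and 0.0805 in Cas9M3-DM3. The knockdown was 23.7-fold on DM3 (adjusted p = 0.0187, limma) and 17.1-fold in GM, where it was not called (adjusted p = 0.188).

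Promoter sequence was read from RefSeq (GRCm38.p6) for windows from 250 bases before to 50 bases after the start of a gene as RefSeq places it, which were present for 7 of the 10 genes: Pax7, Calcr, Spry1, Cxcr4, Fgfr4, Cdh15 and Sdc4. The windows were searched for the E-box, CANNTG, the hexamer bound by Myod1 and its relatives as well as by many other factors. The motif reads the same on both strands. It was found 4 times in the window of Cdh15, 2 times in those of Fgfr4 and Spry1, 1 time in one of the 2 windows of Calcr, and not in those of Pax7, Cxcr4 and Sdc4. At least 1 E-box was present in 72.314% of all 32851 windows, at least 2 in 39.643% and at least 4 in 6.487%. The stretches of Cdh15, Fgfr4 and Spry1 are shown because these genes were called as changed below and hold the motif at least 2 times. Each is 30 bases on the plus strand, with the E-box in capitals. The gene bounds given below start earlier than the RefSeq start for Cdh15 (122847966) and Fgfr4 (55152640). By those bounds, all stretches shown for Cdh15 and Fgfr4 lie after the start, within the gene.
Cdh15, 236 bases before the start, chr8:122848126-122848155: aggcactgatcaCATATGctgtcactcaga
Cdh15, 135 bases before the start, chr8:122848227-122848256: caggcccacctaCATGTGctgtcactcatc
Cdh15, 32 bases before the start, chr8:122848330-122848359: cgccccaccacaCACGTGcagtcccttggc
Cdh15, 2 bases before the start, chr8:122848360-122848389: ctgctccccaagCACTTGcgctgtcactca
Fgfr4, 112 bases before the start, chr13:55152694-55152723: gtaccgggctgaCATTTGccgggtctcgga
Fgfr4, 10 bases before the start, chr13:55152796-55152825: cccgccacgctgCAGTTGcagggacattcc
Spry1, 190 bases before the start, chr3:37639745-37639774: cccgctcctcccCAGTTGcgctcgcaggac
Spry1, 76 bases before the start, chr3:37639859-37639888: ccgcgtgattgaCACATGatatcaccgggg

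In regenerating muscle, 5 of the 7 tested genes stood highest on day 3. How many of all genes stood highest on day 3 was not counted. Against day 0, Pax7, Cxcr4, Fgfr4, Vcam1 and Cdh15 rose 2.48-fold to 10.4-fold, when 24.5% of all genes tested were called higher. Sdc4 and Spry1 were not called on any day against day 0. None of the 7 was called on day 10 against day 0 (limma), when 0.00597% of all genes tested were. The plot of FPKM by day shows all 10 genes.

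**Figure D1:**
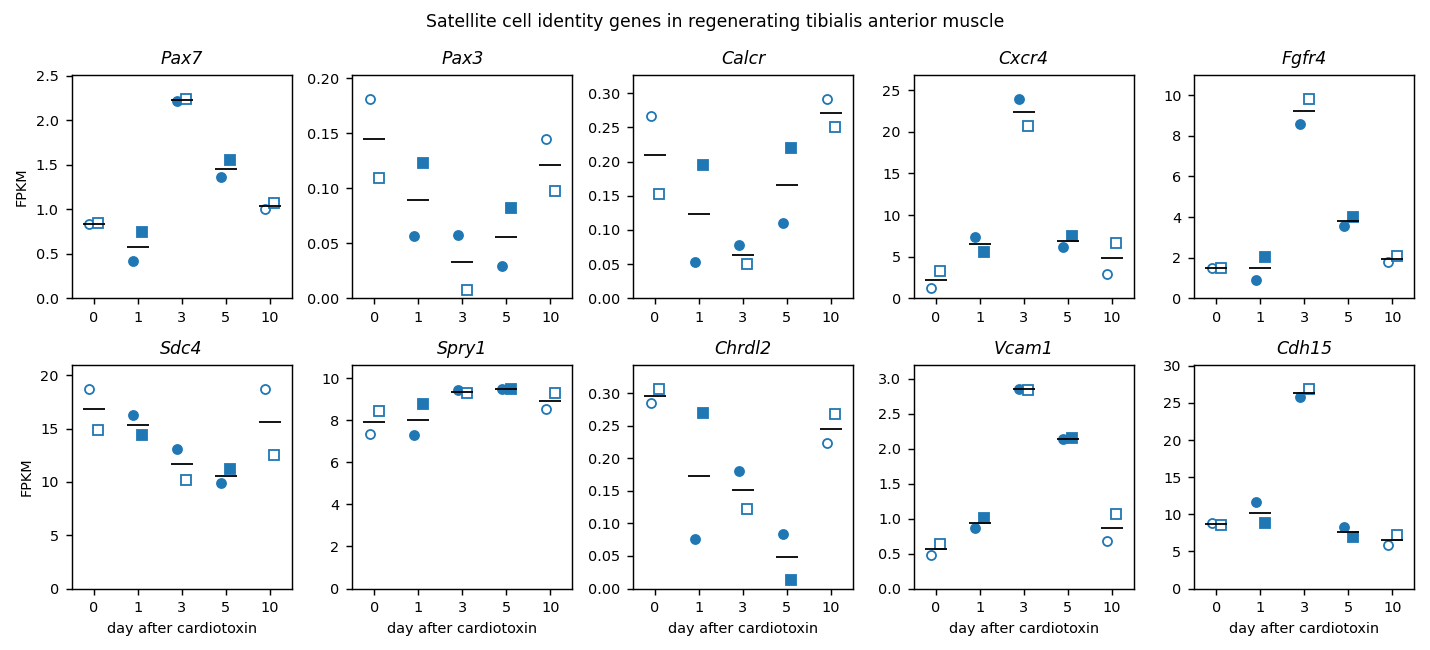
FPKM of the 10 satellite cell identity genes (y axis, linear, from 0, with its own range in each panel) against the day after cardiotoxin (x axis). Circles are replicate 1 and squares replicate 2, open symbols mark libraries that express Xist, and each line is the mean of 2 libraries. Both day 3 libraries of Pax7, Cxcr4, Fgfr4, Vcam1 and Cdh15 stand above every library of the other days.

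Pax7 (chromosome 4, 139737062 to 139833528, minus strand, GRCm38) had 0.836 and 0.843 FPKM on day 0, 0.417 and 0.740 on day 1, 2.21 and 2.24 on day 3, 1.36 and 1.55 on day 5, with 1.00 and 1.07 on day 10. These values rest on 35 to 266 reads per library. Both day 3 libraries stood above all others, both day 1 libraries lay below those of day 0, and neighbouring days in the order of levels did not overlap. Against day 0, Pax7 was 2.48-fold higher on day 3 (log2 fold change 1.31, SE 0.25, adjusted p = 0.00398, limma). With replicate 1 of day 3 left out, so that all libraries compared express Xist, the change was 1.32 on the log2 scale (adjusted p = 0.0260). On day 5 Pax7 was 1.65-fold above day 0 and not called (adjusted p = 0.0665). From day 3 to day 10 it fell by 1.04 on the log2 scale (adjusted p = 0.0142), and among Xist-expressing libraries this was not called (-1.05, adjusted p = 0.0669). The call from day 3 to day 10 was also lost without replicate 2 of day 3 or replicate 1 of day 10, with an adjusted p of at most 0.0750.

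Pax3 (chromosome 1, 78101267 to 78197134, minus strand) was far lower, and its mean was lowest on day 3. It had 0.182 and 0.109 FPKM on day 0, 0.0564 and 0.123 on day 1, 0.0573 and 0.00799 on day 3, 0.0298 and 0.0820 on day 5, with 0.145 and 0.0975 on day 10, which is 1 to 14 reads per library. The day 3 libraries lay below both day 0 libraries. Without the filter on low values, the day 3 to day 0 log2 ratio was -0.90 (adjusted p = 0.101).

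Among the receptors, Cxcr4 (chromosome 1, 128588199 to 128592293, minus strand) had the largest rise of the tested genes. It had 1.29 and 3.23 FPKM on day 0, 7.38 and 5.56 on day 1, 24.0 and 20.7 on day 3, 6.18 and 7.49 on day 5, with 2.94 and 6.67 on day 10. Libraries of days 1, 5 and 10 overlapped, and the day 0 libraries lay far apart. On day 3 Cxcr4 was 10.4-fold above day 0 (log2 fold change 3.38, SE 0.47, adjusted p = 0.00117, limma). Dropping one day 0 library gave a log2 change of 2.75 (replicate 1 dropped) or 4.01 (replicate 2 dropped), and among Xist-expressing libraries the change was 3.27 (adjusted p = 0.0113). Its rise on day 1, 3.03-fold with no overlap, was not called (adjusted p = 0.0848). On day 5 it was 3.21-fold above day 0 (adjusted p = 0.0377), a call lost when replicate 1 of day 0, or either library of day 3 or day 5, was left out. Without replicate 1 of day 0 that change was 1.05 on the log2 scale (adjusted p = 0.208).

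Fgfr4 (chromosome 13, 55152640 to 55168759, plus strand), whose E-boxes are shown above, had 1.52 and 1.48 FPKM on day 0, 0.907 and 2.04 on day 1, 8.60 and 9.84 on day 3, 3.59 and 4.02 on day 5, with 1.80 and 2.11 on day 10. Days 3 and 5 each stood apart from all other days, and days 0 and 1 overlapped. The rise on day 3 was 5.81-fold (log2 fold change 2.54, SE 0.32, adjusted p = 0.000768, limma) and 2.64 on the log2 scale among Xist-expressing libraries (adjusted p = 0.00670). On day 5 Fgfr4 was still 2.44-fold above day 0 (adjusted p = 0.0267), a call lost when either library of day 0 or of day 5 was left out (adjusted p up to 0.144).

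Sdc4 (chromosome 2, 164424247 to 164443887, minus strand), the co-receptor, was the highest of the 10 genes on day 0. It had 18.8 and 14.8 FPKM on day 0, 16.3 and 14.4 on day 1, 13.1 and 10.2 on day 3, 9.93 and 11.2 on day 5, with 18.7 and 12.5 on day 10. Libraries of days 3 and 5 lay below those of days 0 and 1, and days 0, 1 and 10 overlapped. The log2 fold change against day 0 was -0.52 on day 3 (SE 0.23, adjusted p = 0.0919, limma) and -0.65 on day 5 (adjusted p = 0.0700), and neither was called.

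Calcr (chromosome 6, 3685680 to 3764714, minus strand) had 0.267 and 0.153 FPKM on day 0, 0.0536 and 0.195 on day 1, 0.0777 and 0.0505 on day 3, 0.110 and 0.220 on day 5, with 0.292 and 0.251 on day 10. Both day 3 libraries lay below both day 0 libraries and both day 10 libraries, on 3 to 17 reads per library over the whole course. Without the filter on low values, the log2 fold change was -0.90 on day 3 against day 0 (adjusted p = 0.175) and 1.18 on day 10 against day 3 (adjusted p = 0.0977). At this depth a change of Calcr was not resolved.

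Spry1 (chromosome 3, 37639947 to 37644598, plus strand), the inhibitor, stayed in a narrow range. Its lowest library had 7.28 FPKM on day 1 and its highest 9.49 on day 5, with 7.35 and 8.45 on day 0 and 9.41 and 9.30 on day 3. Against day 0 its log2 fold changes lay between 0.02 on day 1 and 0.26 on day 5, with an SE of 0.14 and adjusted p from 0.180 to 0.962. Its exons share 710 bases with Gm42922 on the other strand, and reads there cannot be told apart unless they were counted by strand, which is not stated in the sources used here.

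Chrdl2 (chromosome 7, 100006172 to 100034728, plus strand), the secreted antagonist, had 0.285 and 0.307 FPKM on day 0, 0.0763 and 0.270 on day 1, 0.180 and 0.122 on day 3, 0.0838 and 0.0139 on day 5, with 0.223 and 0.268 on day 10. Day 5 was lowest, with 5 reads and 1 read, below all libraries of days 0, 3 and 10. Without the filter on low values, its log2 ratio of day 5 to day 0 was -1.45 (SE 0.43, adjusted p = 0.0792).

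Of the adhesion genes, Vcam1 (chromosome 3, 116109949 to 116129688, minus strand), the ligand of the integrin alpha 4 beta 1, had 0.480 and 0.642 FPKM on day 0, 0.858 and 1.00 on day 1, 2.86 and 2.84 on day 3, 2.14 and 2.15 on day 5, with 0.681 and 1.06 on day 10. Its level was highest on day 3, next on day 5, and lower on days 1 and 10, which overlapped. Vcam1 was 4.50-fold above day 0 on day 3 (log2 fold change 2.17, SE 0.24, adjusted p = 0.000511, limma), with 2.17 among Xist-expressing libraries (adjusted p = 0.00560). On day 5 it was 3.42-fold higher (adjusted p = 0.00966), a call lost without replicate 1 of day 0 or replicate 2 of day 5 (adjusted p up to 0.0816). Its exons share 61 bases with Gm43109 on the other strand.

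Cdh15 (chromosome 8, 122847966 to 122867397, plus strand), with 4 E-boxes in its promoter window, had 8.77 and 8.57 FPKM on day 0, 11.6 and 8.83 on day 1, 25.7 and 26.9 on day 3, 8.25 and 7.00 on day 5, with 5.80 and 7.19 on day 10. It was high on day 3 alone, and days 5 and 10 overlapped below day 0. The rise against day 0 was 3.01-fold (log2 fold change 1.59, SE 0.18, adjusted p = 0.000517, limma) and 1.62 on the log2 scale among Xist-expressing libraries (adjusted p = 0.00503). From day 3 to day 5 Cdh15 fell by 1.78 on the log2 scale (adjusted p = 0.00525), so that day 5 was 1.14-fold below day 0 (adjusted p = 0.460). Without replicate 2 of day 3 the fall to day 5 was 1.75 and not called (adjusted p = 0.0560), and it was not called without replicate 2 of day 5 either.

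**Figure D2:**
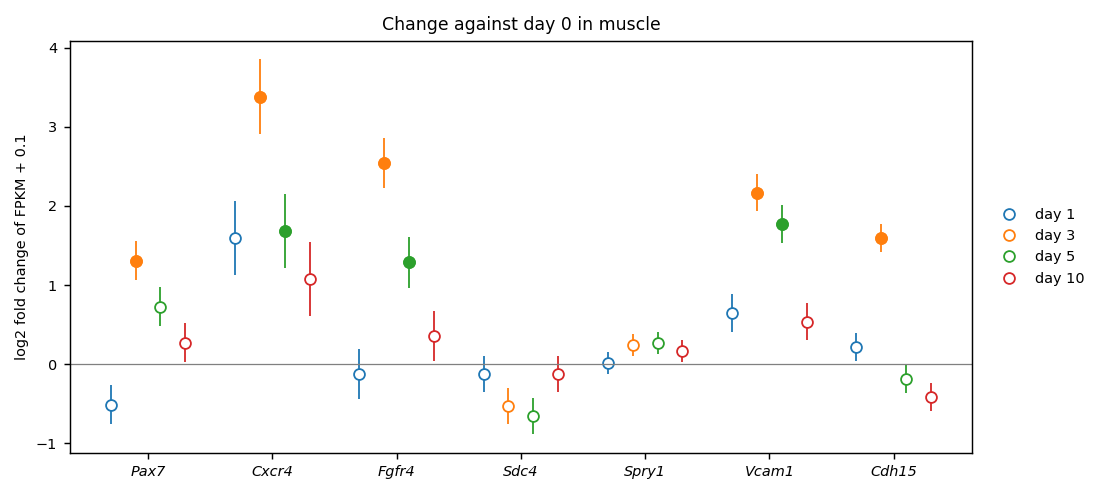
Log2 fold change of FPKM + 0.1 against day 0 (y axis) for the 7 tested genes (x axis) on days 1, 3, 5 and 10. Points are limma estimates with bars of 1 SE, and filled points have an adjusted p no higher than 0.05. On day 3, 5 genes are filled, beside 48.8% of all genes tested that were called. On day 5 Cxcr4, Fgfr4 and Vcam1 are, beside 25.5%.

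Taking the comparisons in turn, 0 of the 7 tested genes were called on day 1 against day 0 (limma, 2 at an unadjusted p under 0.05), when 6.00% of all genes tested were called. On day 3, 5 of 7 were called, all higher, beside 48.8% of all genes, of which 24.5% were higher and 24.3% lower. The median log2 fold change was 1.59 over the 7 genes and 0.01 over all genes tested. Of the 7, Sdc4 was lower (-0.52) and Spry1 higher (0.25), and neither was called. Pax3, Calcr and Chrdl2, left out by the filter, were lower on day 3 on few reads. Without the filter their log2 fold changes were -0.90, -0.90 and -0.67 (adjusted p from 0.101 to 0.322, limma), and none was called. On day 5, 3 of 7 were called, all higher (25.5% of all genes). The fits without replicate 1 of day 0 or replicate 2 of day 5, which lost these calls, called 24 and 19 of all 16753 genes, against 4267 with all libraries. Calls of Cxcr4 or Fgfr4 were also lost, as given above, in other fits that left out 1 library and still called many genes. With a term for Xist-expressing libraries, 0 of all genes were called, and the log2 changes were 1.47 for Cxcr4, 1.48 for Fgfr4 and 1.77 for Vcam1. Only day 3 has libraries with and without Xist, 1 of each. The term rests on that pair, so this fit cannot separate the trait from the day. On day 10, 0 of 7 were called (limma, 1 at an unadjusted p under 0.05), with 0.00597% of all genes.

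From day 1 to day 3 the same 5 genes rose (31.1% of all genes called), by 1.37 for Cdh15 to 2.66 for Fgfr4 on the log2 scale. Among the libraries without Xist, left after dropping replicate 2 of day 3, day 3 has 1 library. In that fit Cxcr4 had a change of 1.89, and its call was lost. From day 3 to day 5, Cdh15 and Fgfr4 fell (12.7% of all genes called). Fgfr4 changed by -1.25 (adjusted p = 0.0417), and Cxcr4, at -1.70, missed the threshold (adjusted p = 0.0549). Without replicate 2 of day 3, or without replicate 2 of day 5, 0 of these 7 genes were called from day 3 to day 5, when 0 and 5 of all 16753 genes were (2126 with all libraries). From day 3 to day 10, all 5 genes fell (37.9% of all genes called), by 1.04 for Pax7 to 2.30 for Cxcr4. Not all of these calls held without replicate 1 of day 10, which leaves 1 library for that day. These comparisons share the day 3 libraries.

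Levels of markers of other cells, and of myoblasts, also differed between these libraries. The counts of called markers below are for day 3 against day 0, when 24.5% of all genes tested were called higher and 24.3% lower. Of 4 myoblast genes, 3 were called higher on day 3 (Myf5, Myod1 and Myog), and Myog, a factor of differentiating myoblasts, went from 7.73 and 10.97 FPKM on day 0 to 262 and 234 on day 3. The sum of the 4, which includes Des, was 776 and 837 on day 0 and 800 and 967 on day 3. The summed FPKM of 6 macrophage markers was 19.0 and 35.8 on day 0, 109 and 115 on day 1, 546 and 517 on day 3, 183 and 232 on day 5, with 34.8 and 96.3 on day 10, and all 6 were called higher on day 3. The 6 fibroadipogenic markers summed to 57.9 and 132 on day 0 and to 444 and 477 on day 3, and 2 of 6 were called higher. The 6 muscle fibre markers summed to 59799 and 52430 on day 0 and 18174 and 14515 on day 3, all 6 called lower. The 6 cycling cell markers, all called higher, summed to 0.213 and 2.80 on day 0 and to 21.3 and 10.2 on day 3. The sum of 6 endothelial markers was 63.2 and 87.0 on day 0 and 51.9 and 41.5 on day 3, with 2 of 6 called lower. The 6 markers of other leukocytes summed to 1.77 and 5.77 on day 0 and to 6.52 and 6.36 on day 3, with 1 of 3 tested called higher. Cxcr4 and Vcam1 are also made by leukocytes, endothelium and other cells, and Fgfr4 and Sdc4 are not confined to satellite cells. The part of these cells in the changes of the 10 genes was not tested. In bulk muscle, more cells of a type and more RNA per cell cannot be told apart.

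Most of a second list of 15 satellite cell genes were also higher on day 3. This list is not separate from the others. It shares Myf5 with the myoblast genes, Cd34 with the fibroadipogenic markers, and Itgb1 and Sdc3 with the pathway genes described next. On that day against day 0, 10 of 15 tested were called higher and 0 lower, beside 24.5% and 24.3% of all genes, with a median log2 fold change of 1.67. Ncam1, an adhesion protein of satellite cells and new fibres, had 0.964 and 1.63 FPKM on day 0 and 21.8 and 40.6 on day 3 (log2 fold change 4.46, adjusted p = 0.000324, limma). Megf10, a surface protein of satellite cells, went from 0.218 and 0.311 to 3.96 and 3.28 FPKM (log2 fold change 3.36, adjusted p = 0.000434). Against day 0, 7 of the 15 were called higher on day 5 (12.9% of all genes) and 0 on day 10 (0.00597%). From day 3 to day 10, 10 of 15 fell, beside 18.8% of all genes.

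Of 30 ligands, receptors, antagonists, feedback genes and other partners in the pathways of the 10 genes, 27 were tested. On day 3 against day 0, 10 rose and 6 fell, beside 24.5% and 24.3% of all genes, with a median log2 fold change of 0.52. Cdh2, N-cadherin, which like Cdh15 joins satellite cells to the fibre, rose from 0.109 and 0.232 to 4.06 and 4.99 FPKM (log2 fold change 4.12, adjusted p = 0.000430, limma). Col5a2, a chain of collagen V, went from 2.44 and 8.58 to 44.1 and 47.5 FPKM (log2 fold change 3.29, adjusted p = 0.00690). Fgf1, a growth factor that binds Fgfr4, fell from 11.5 and 13.3 to 1.83 and 1.33 FPKM (log2 fold change -2.91, adjusted p = 0.000307). Ramp1, a partner protein of the calcitonin receptor, fell from 21.9 and 21.7 to 6.14 and 3.48 FPKM (log2 fold change -2.21, adjusted p = 0.000556). On day 10 against day 0, 0 of 27 were called (limma), beside 0.00597% of all genes.

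Across the 10 muscle libraries, Pax7 and Fgfr4 had the closest course among the 7 tested genes, with a Pearson r of 0.959 on the log2 scale. Vcam1 followed Fgfr4 with an r of 0.899 and Cxcr4 with 0.882, and Sdc4 ran against all others, with r from -0.855 for Vcam1 to -0.342 for Cdh15. Among 12284 candidate genes, the closest course was that of Rcbtb2 to Pax7 (r = 0.981), Lcp2 to Cxcr4 (0.990), Cdh2 to Fgfr4 (0.983), Apoe to Vcam1 (0.995), Ssbp3 to Cdh15 (0.975), Elof1 to Sdc4 (0.969) and C1qtnf2 to Spry1 (0.965). These values describe 10 libraries that share 5 days, and 2 libraries of a day are close to each other.

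In the C2C12 libraries, Pax7, Pax3, Calcr, Chrdl2 and Fgfr4 were at or near 0 and under the filter. Of the other 5, Cdh15, Cxcr4 and Spry1 rose in control cells from GM to DM3, when 1.14% of all genes tested were called. In knockdown cells Cdh15, Cxcr4 and Spry1 stood lower on DM3 than in controls, and Sdc4 higher, without overlap and without a call. How many of all genes did not overlap was not counted.

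**Figure D3:**
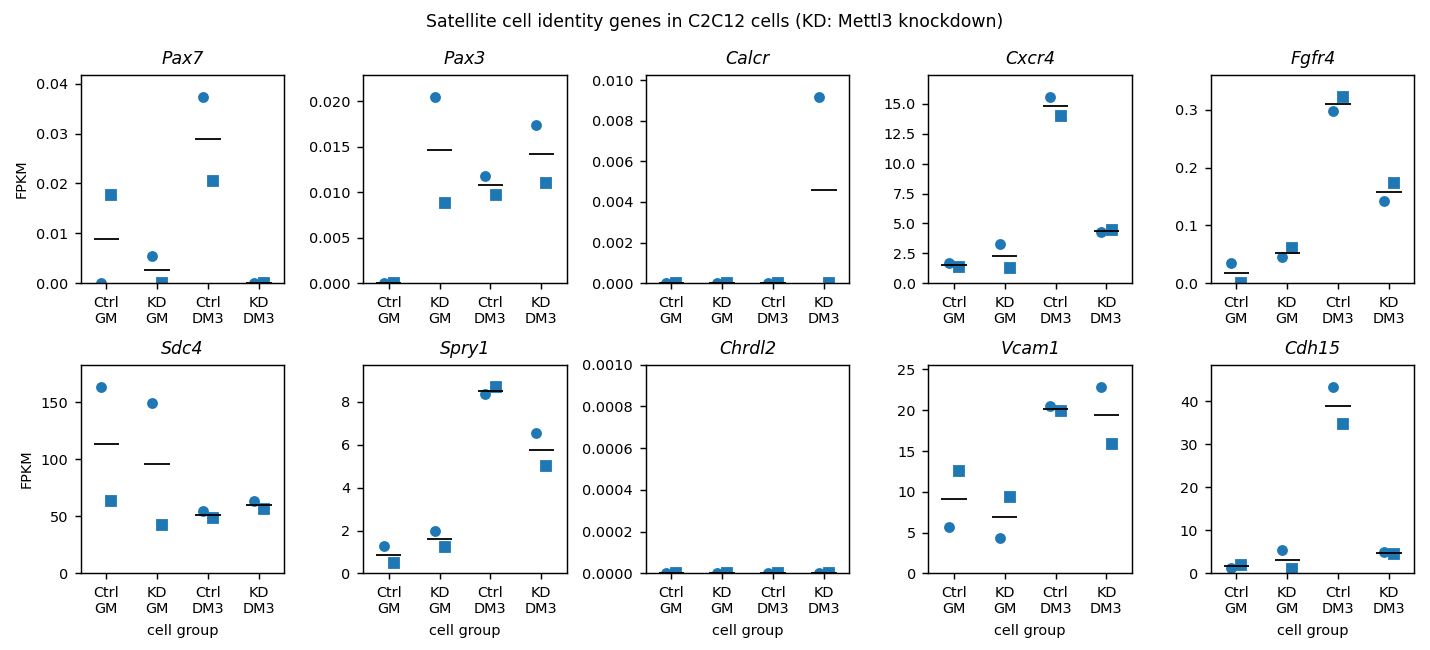
FPKM of the 10 genes (y axis, linear, from 0, with its own range in each panel) in control (Ctrl) and Mettl3 knockdown (KD) C2C12 cells in GM and on DM3 (x axis). Circles are replicate 1, squares replicate 2 and lines means of 2 libraries. Cdh15, Cxcr4 and Spry1, and at low levels Pax7 and Fgfr4, are highest in both Ctrl-DM3 libraries, and Chrdl2 is at 0 in all 8.

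Pax7 was listed at 0 and 0.0177 FPKM in Ctrl-GM, 0.00541 and 0 in Cas9M3-GM, 0.0373 and 0.0205 in Ctrl-DM3, and 0 in both Cas9M3-DM3 libraries, which is at most 6 reads. In the last group, a count of 0 allows up to 3 reads, or 0.0184 and 0.0348 FPKM, and the Ctrl-DM3 libraries held 6 and 2 reads. Without the filter, Pax7 was not called between knockdown and control on DM3 (log2 fold change -0.36, adjusted p = 0.288, limma). Pax3 rested on 0 to 4 reads and at most 0.0205 FPKM. Calcr had 1 read in 1 library, Cas9M3-DM3 replicate 1. Chrdl2 had 0 reads in all 8 libraries, which allows up to 0.0258 to 0.0849 FPKM. These limits cover counting error only. The myoblast gene Myod1 was present in all 8 libraries, with 2.50 and 2.59 FPKM in Ctrl-GM and 30.5 and 31.2 in Ctrl-DM3.

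Fgfr4 also stayed under the filter, with 0.0355 and 0 FPKM in Ctrl-GM, 0.0447 and 0.0615 in Cas9M3-GM, 0.299 and 0.322 in Ctrl-DM3, and 0.142 and 0.173 in Cas9M3-DM3. The GM values are 0 to 5 reads and the DM3 values 9 to 29. Both DM3 groups stood above both GM groups, and the knockdown libraries on DM3 lay below the controls. Without the filter, Fgfr4 was not called between control DM3 and GM (log2 fold change 1.82, adjusted p = 0.0843, limma) or between knockdown and control on DM3 (-0.68, adjusted p = 0.402).

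Cdh15 had 1.29 and 2.04 FPKM in Ctrl-GM, 5.35 and 1.07 in Cas9M3-GM, 43.3 and 34.6 in Ctrl-DM3, and 4.87 and 4.50 in Cas9M3-DM3. The Ctrl-DM3 libraries stood far above all others, and the knockdown libraries on DM3 lay within the range of those in GM. In control cells Cdh15 rose 22.5-fold from GM to DM3 (log2 fold change 4.49, SE 0.67, adjusted p = 0.0438, limma). In knockdown cells the log2 fold change was 0.92 (adjusted p = 0.699), and it was 2.03 without replicate 1 of Cas9M3-GM and -0.19 without replicate 2. On DM3 Cdh15 was 8.11-fold lower in knockdown than in control cells, which was not called (log2 fold change -3.02, adjusted p = 0.0845).

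Cxcr4 followed the same order at lower contrast. It had 1.72 and 1.37 FPKM in Ctrl-GM, 3.31 and 1.30 in Cas9M3-GM, 15.6 and 14.0 in Ctrl-DM3, and 4.29 and 4.44 in Cas9M3-DM3. Both DM3 groups stood above GM, and the groups on DM3 did not overlap. Cxcr4 rose 9.06-fold in control cells (log2 fold change 3.18, SE 0.41, adjusted p = 0.0342, limma), and in knockdown cells the log2 fold change was 1.03 (adjusted p = 0.379). On DM3 it was 3.33-fold lower in knockdown cells, which was not called (log2 fold change -1.74, adjusted p = 0.0972). Of the 6 macrophage markers, Adgre1, C1qa and C1qb were at 0 in all 8 libraries, and all 6 summed to 6.54 and 1.48 FPKM in Ctrl-GM, 5.53 and 2.70 in Cas9M3-GM, 0.833 and 0.749 in Ctrl-DM3, and 1.62 and 1.40 in Cas9M3-DM3. Their part in the level of Cxcr4 was not tested.

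Spry1, which was not called in muscle, had 1.27 and 0.499 FPKM in Ctrl-GM, 1.97 and 1.24 in Cas9M3-GM, 8.35 and 8.68 in Ctrl-DM3, and 6.53 and 4.99 in Cas9M3-DM3. All 4 DM3 libraries stood above all GM libraries. The rise in control cells was 9.52-fold (log2 fold change 3.25, SE 0.43, adjusted p = 0.0367, limma), with log2 changes of 3.85 without replicate 1 of Ctrl-GM and 2.66 without replicate 2. In knockdown cells the log2 fold change was 1.80 (adjusted p = 0.156). On DM3 both knockdown libraries lay below both controls, with a log2 difference of -0.57 that was not called (adjusted p = 0.603, limma).

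Vcam1 had 5.69 and 12.5 FPKM in Ctrl-GM, 4.36 and 9.42 in Cas9M3-GM, 20.5 and 19.9 in Ctrl-DM3, and 22.8 and 15.9 in Cas9M3-DM3. Values were higher on DM3 in both lines without overlap, and knockdown and control overlapped at both stages. The log2 fold change from GM to DM3 was 1.25 in control (adjusted p = 0.254, limma) and 1.56 in knockdown cells (adjusted p = 0.263), and neither was called.

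Sdc4 was again the highest of the 10 genes, with 163 and 63.7 FPKM in Ctrl-GM, 149 and 42.8 in Cas9M3-GM, 54.7 and 48.6 in Ctrl-DM3, and 63.7 and 56.9 in Cas9M3-DM3. In GM the replicates differed more from each other than the lines did, with replicate 1 the higher in both. On DM3 both knockdown libraries stood above both controls. Its log2 fold changes lay between -0.98 and 0.22 over the 4 pairwise comparisons, with an SE of 0.66, and none was called (limma).

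**Figure D4:**
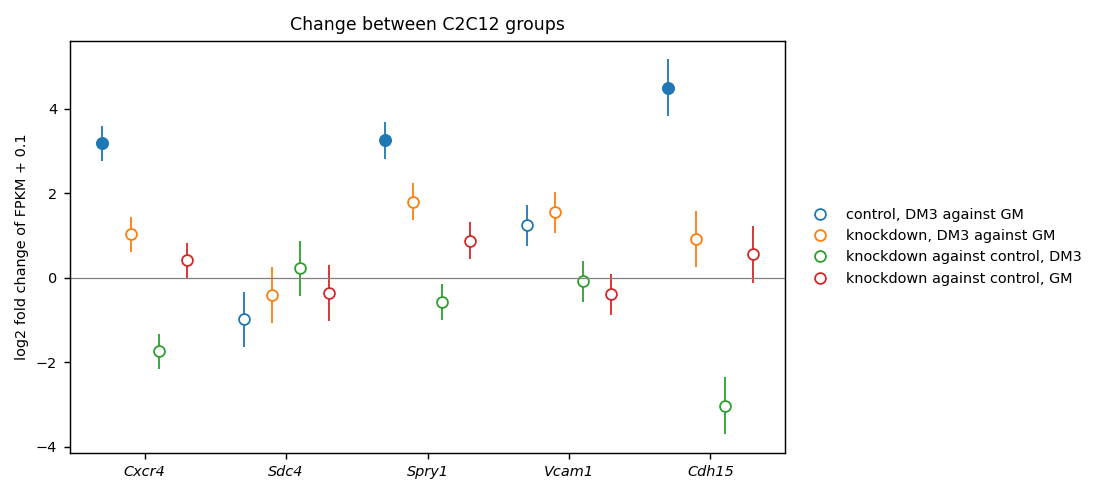
Log2 fold change of FPKM + 0.1 (y axis) for the 5 tested genes (x axis) in 4 comparisons of C2C12 groups. Points are limma estimates with bars of 1 SE, and filled points have an adjusted p no higher than 0.05. The filled points are Cxcr4, Spry1 and Cdh15 in control cells, DM3 against GM, where 1.14% of all genes tested were called.

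Over the comparisons, 3 of the 5 tested genes were called from GM to DM3 in control cells, all higher, when 1.14% of all genes tested were called (158 genes, or 411 with the replicate number as a block). With either Ctrl-DM3 or either Cas9M3-DM3 library left out, 0 of 5 were called, as were 0 of all 13824 genes. Without replicate 2 of Ctrl-GM 1 was, with 142 of all genes. In knockdown cells 0 of 5 were called from GM to DM3 (limma, 3 at an unadjusted p under 0.05), beside 0.0289% of all genes (4 genes, or 9 with the block). Between knockdown and control, 0 of 5 were called in GM (limma, 0 at an unadjusted p under 0.05), as were 0.00% of all genes, of which 1244 had an unadjusted p under 0.05.

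On DM3, 0 of 5 were called between knockdown and control (limma, 2 at an unadjusted p under 0.05), beside 1.98% of all genes (274 genes, or 505 with the block). A fit of the DM3 groups alone called both Cdh15 (adjusted p = 0.00223) and Cxcr4 (adjusted p = 0.00375), with 2637 of all 13824 genes. Fits without replicate 1 or replicate 2 of Cas9M3-GM also called both, with 288 and 289 of all genes. Neither gene was called in any fit that left out a library of Ctrl-DM3 or Cas9M3-DM3, nor was any other gene. The difference between the effect of the knockdown on DM3 and in GM was -3.57 for Cdh15 (SE 0.95, adjusted p = 0.371) and -2.15 for Cxcr4 (SE 0.58, adjusted p = 0.382) on the log2 scale. In this test 0 of 5 were called (limma, 2 at an unadjusted p under 0.05), with 0.00% of all genes and 1198 at an unadjusted p under 0.05. Without both replicate 2 libraries in GM, a choice made after the data were seen that leaves 1 GM library a line, 174 of all genes were called, and it was called for Cdh15 (-4.99, adjusted p = 0.0226) and for Cxcr4 (-2.64, adjusted p = 0.0281).

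Summed levels of differentiation markers also differed on DM3, though few single markers were called between knockdown and control. They were 1 of 4 myoblast genes (Myod1), 1 of 5 tested muscle fibre genes (Ckm), both lower, and 0 of 6 cycling cell markers (limma, 4 at an unadjusted p under 0.05). Over all genes tested, 1.98% were called. The summed FPKM of 4 myoblast genes was 202 and 193 in Ctrl-DM3 and 31.4 and 31.2 in Cas9M3-DM3, and that of 6 muscle fibre genes was 639 and 641 against 19.6 and 14.7, with Myh4 at 0 in both knockdown libraries. In GM the myoblast sum was 44.9 and 23.9 in control and 72.3 and 14.1 in knockdown cells. The cycling cell markers summed to 75.2 and 65.2 in Ctrl-DM3 and 28.4 and 26.7 in Cas9M3-DM3. The part of these differences in the levels of Cdh15 and Cxcr4 was not tested.

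Of the second list of satellite cell genes, 13 were tested in C2C12. Over all genes, 1.14% were called in control cells from GM to DM3 and 1.98% between knockdown and control on DM3. Itga7, an integrin that binds laminin, was the 1 called in control cells from GM to DM3, with 11.8 and 9.84 FPKM in Ctrl-GM and 54.1 and 41.6 in Ctrl-DM3 (log2 fold change 2.13, adjusted p = 0.0206, limma). In Cas9M3-DM3 it had 11.9 and 12.9 FPKM, 3.81-fold below the control (adjusted p = 0.0215), the 1 call of 13 between knockdown and control on DM3. Of the 25 pathway genes tested, 1 was called in control cells from GM to DM3, Nog, an antagonist of bone morphogenetic proteins, with 0.204 and 0 FPKM in Ctrl-GM and 3.06 and 2.84 in Ctrl-DM3 (log2 fold change 4.13, adjusted p = 0.0394). On DM3, 2 of 25 differed between knockdown and control, Fgf7 (2.46 on the log2 scale, adjusted p = 0.0271), a growth factor, and Col5a3 (-2.34, adjusted p = 0.0279), a chain of collagen V.

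Across the 8 C2C12 libraries, Cdh15 and Cxcr4 had a Pearson r of 0.979 on the log2 scale, and Spry1 followed Cxcr4 with an r of 0.907. In muscle the r of Cdh15 with Cxcr4 was 0.764 and that of Spry1 with Cxcr4 0.602. The libraries of a table share 4 cell groups or 5 days, so these values describe group levels more than independent points. FPKM of the tables were scaled separately and were not compared between muscle and cells.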

How the data were processed

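RNA-seq of 10 muscle and 8 C2C12 libraries was analysed. Per the labels, libraries were made with the SMARTER mRNA-Seq kit. HISAT2 was the aligner of the authors (GRCm38) and featureCounts the counter, and they deposited FPKM from the fpkm function of DESeq2, 1 table per experiment. Tool versions and the strand setting are not given in the sources used here. Groups came from the labels, and the Mettl3 overexpression libraries were not analysed here.

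Deposited FPKM plus 0.1 were fitted on the log2 scale with limma 3.58.1 (lmFit, eBayes with a trend) in R 4.3.3, all groups of a table together, after a filter of 0.5 FPKM in 2 libraries. The values are not counts, so the DESeq2 test of the study was not repeated. Depth was read from steps in the values with GENCODE M21 exon lengths, matched for 53360 and 55227 genes, and was not used in tests. Python 3.11.15, pandas 2.3.3, numpy 2.4.6 and matplotlib 3.10.9 were used. The 10 genes and all lists were chosen with earlier results of these data known. Named list genes were at most the 2 largest rises and 2 largest falls called on day 3 against day 0, or in control DM3 against GM, whose higher group averaged 1 FPKM or more, and for each tested gene in muscle those with the highest Pearson r to it. Fgf7, Col5a3, the C2C12 values of Myod1 and the DM3 values of Itga7 were added after values were seen.

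Deviations from group means correlated by 0.278 to 0.680 between C2C12 libraries of the same replicate number, so these numbers pair the libraries by this measure. Neither the methods nor the labels give a reason. Alternatives were pseudocounts of 0.01 and 1, no filter, a filter of 1 FPKM, median-ratio and quantile scaling, only the groups compared, a replicate block, a log2 fold change of at least 2, and each library left out. A term for Xist-expressing libraries, and C2C12 without both replicate 2 libraries in GM, were added after the data were seen.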

Additional observations from a re-analysis of the deposited data

Results flagged for a closer look

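As listed, Fgfr4 values of knockdown and control C2C12 cells lay in opposite order at the 2 stages, on few reads. In GM both knockdown libraries (0.0447 and 0.0615 FPKM) lay above both controls (0.0355 and 0 FPKM), and on DM3 both (0.142 and 0.173) lay below them (0.299 and 0.322), with a log2 ratio of mean FPKM + 0.1 of -0.67 on DM3. A count of 0 allows up to 0.0877 FPKM in that control library, above both knockdown values, so the direction in GM was not resolved. The GM values are 4 and 0 reads in control and 5 and 4 in knockdown libraries. In the fit without a filter on low values, the difference between the effects was -1.07 on the log2 scale (SE 0.42, adjusted p = 0.637, limma).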

How the results depend on the processing

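Over the alternatives that keep all libraries or drop both replicate 2 libraries in GM, 420 of the single-gene values in muscle and 200 in C2C12 kept their direction and their side of the threshold. In muscle 13 calls were lost, 7 gained and 1 direction turned, and in C2C12 7 were lost, 12 gained and 1 turned. Requiring a log2 fold change of 2 in size as well left 3 called genes for day 3 against day 0 (2225 of all 16753) and 0 for day 5 against day 0 (866). It left 1 for day 3 against day 1 (1009), 0 for day 5 against day 3 (280) and 3 for day 10 against day 3 (1387). Without a filter, where more genes are tested, 1 gene was called for day 5 against day 0 (2914 of all 31329). It was 1 for day 5 against day 3 (1688) and 0 for control DM3 against GM (105 of all 27456). A term for Xist-expressing libraries, set by the day 3 libraries alone, left 0 for day 5 against day 0 and 0 for day 5 against day 3. It left 0 of all 16753 genes in both as well, and turned Fgfr4 on day 1 against day 0 to 0.070. A pseudocount of 0.01 left 1 for day 5 against day 3 (1824 of all genes). A pseudocount of 1 gave 1 for knockdown against control on DM3 (453 of all genes). Fits of only the groups compared gave 2 for knockdown against control on DM3 (2637 of all 13824 genes) and 0 for control DM3 against GM (0 of all genes). Without both replicate 2 libraries in GM, which leaves 1 GM library a line that is assumed to vary like the other groups, the counts were 2 for knockdown against control on DM3 (2699 of all genes), 5 for control DM3 against GM (1389), 3 for knockdown DM3 against GM (1320) and 2 for the difference of the effects (174), and Cdh15 in knockdown DM3 against GM turned to -0.19. The cause of these shifts was not tested.

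The replicate block moved no call of the 10 genes in C2C12 (Cdh15, knockdown against control on DM3, adjusted p = 0.0625, limma). In muscle, where the pairing correlations of same-numbered libraries ran from -0.02 to 0.21 and the numbers are only shared, the block added Cxcr4 for day 5 against day 3 (-1.70, adjusted p = 0.0490) and Sdc4 for day 5 against day 0 (-0.65, adjusted p = 0.0406).

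With each library left out in turn, the called genes numbered 0 to 1 for day 1 against day 0, where Pax7 was called without replicate 2 of day 1, 5 to 5 for day 3 against day 0, 0 to 4 for day 5 against day 0, 0 to 0 for day 10 against day 0, 4 to 5 for day 3 against day 1, 0 to 2 for day 5 against day 3 and 3 to 5 for day 10 against day 3. In C2C12 they numbered 0 to 2 for knockdown against control on DM3, 0 to 3 for control DM3 against GM and 0 to 1 for knockdown DM3 against GM, the last without either Ctrl-GM library. The number called among all genes varied between these fits as well. Log2 fold changes that turned sign ran, on day 1 against day 0, from -0.67 to 0.42 for Fgfr4, -0.29 to 0.042 for Sdc4 and -0.11 to 0.15 for Spry1. For Sdc4 they ran from -0.41 to 0.16 on day 10 against day 0 and from -0.31 to 0.047 on day 5 against day 3. In GM, knockdown against control, the ranges were -0.23 to 1.06 for Cxcr4, -1.25 to 0.55 for Sdc4, -0.95 to 0.17 for Vcam1 and -0.56 to 1.66 for Cdh15. On DM3 that of Vcam1 was -0.34 to 0.18. For knockdown DM3 against GM they were -1.31 to 0.49 for Sdc4 and -0.19 to 2.03 for Cdh15, and for the difference of the effects -0.32 to 1.48 for Sdc4 and -0.25 to 0.87 for Vcam1. None of these values was called in the fit of all libraries. Depth limits Pax3, Calcr and Chrdl2 in both tables and Pax7 and Fgfr4 in C2C12, which rest on few reads.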
